A study of Rattus norvegicus with 26 samples.

Results

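Wheel running was compared with no wheel in soleus, a calf muscle made mainly of slow fibres, across a pair of rat lines, to find transcripts that moved alike in both lines. The LCR and HCR lines were bred for low and high running capacity, and all animals were aged females of generation 44. All 26 libraries of the series entered the comparison, 5 from running LCR and 5 from running HCR, against 8 from sedentary LCR and 8 from sedentary HCR. Running rats were housed in pairs with a wheel for over 5 months, and sedentary rats had none, per the labels' protocols. A transcript was called when its running effect, with line as a term, had an adjusted p under 0.05 (edgeR quasi-likelihood test with Benjamini-Hochberg adjustment). It was counted as moving alike when it was called, its log2 fold change had one sign in both lines, the unadjusted p of the difference of responses was 0.05 or above, and the smaller of the line responses was at least 0.5 times the larger on the log2 scale. With 5 runners in each line, an unadjusted p of 0.05 or above does not show that the responses are equal. Of 10064 genes tested, 36 were called (0.358%) and 29 moved alike (0.288%).

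Skeletal muscle fibres respond to repeated contraction through calcium, cyclic AMP and hormone signals that reach the nucleus and change transcription of metabolic and contractile genes. Calcium released from the sarcoplasmic reticulum binds troponin C on the thin filament to start contraction, and it also activates phosphatases and kinases. Cyclic AMP, formed after adrenergic stimulation, activates protein kinase A and is broken down by phosphodiesterases. Glucocorticoids act through a nuclear receptor on genes of glucose and amino acid handling, and kynurenine aminotransferases of muscle turn the tryptophan product kynurenine into kynurenic acid. Endurance training is known for raising mitochondrial content and oxidative capacity of muscle.

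The labels' protocols set the runners apart as a voluntary exercise cohort and name no cage, batch or date, so running, cohort and cage cannot be told apart. Nothing in the labels says that same-numbered libraries belong together. For HCR running 5 and LCR running 5 the title names the other line, and both libraries were kept under their genotype and group. Libraries held 1.10 to 2.52 megacounts (M) each, with 1.60 ± 0.304 M in runners (SD, n = 10) and 1.82 ± 0.326 M in sedentary rats (n = 16; 2-sided permutation p = 0.0910). The slow myosin heavy chain gene Myh7 stood at 11240 ± 1045 CPM, counts scaled to library size, in runners and 10808 ± 1811 CPM in sedentary rats. Myh4, the myosin of the fastest fibres, stood at 66.6 ± 88.0 CPM in runners and 72.5 ± 45.4 CPM in sedentary rats. Summed levels of 10 marker lists for fibre types and other cells gave 2-sided permutation p-values from 0.136 to 0.979, and no listed marker found in the table was at 0 in all libraries. Sums are weighted to abundant members. Taken singly, 17 of 19 endothelial and 14 of 15 Schwann cell and neuromuscular markers had a log2 fold change below 0. So did 11 of 15 pericyte and 10 of 13 fibro-adipogenic markers, and 5103 of 10064 genes tested. Below 0 were also 14 of 20 fast-fibre genes, 6 of 8 satellite cell, 6 of 10 adipocyte and 3 of 5 erythroid markers. Macrophage markers were split, with 8 above and 9 below 0. By contrast, 13 of 16 slow-fibre genes lay above 0. In whole muscle, fewer cells of a type and less RNA per cell cannot be told apart.

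Of the 36 called genes, 24 were higher (0.238%) and 12 lower (0.119%) in runners, and all 36 had the same sign in LCR and HCR. Among the 29 that moved alike, 18 were higher and 11 lower (0.179% and 0.109% of genes tested). Sizes were modest: the absolute log2 fold change ran from 0.25 to 1.21 with a median of 0.46, and 4 genes changed at least 2-fold. The response was larger in HCR for 18 of the 29 and larger in LCR for 11. The line term was called for 467 of all genes (4.64%) and for 6 of the 29, Aldoc, LOC102550339, Pde4d, Nfkbia, Actg1 and Tra2a. Unadjusted p-values were under 0.05 in both lines for 28 of the 29, with LOC102550339 the exception, and for 111 of all genes tested (1.10%). The 29 were chosen on the fold changes of these same libraries, so that count only describes them. In no gene did the 10 runners lie wholly outside the 16 sedentary libraries. Within a line, runners did not overlap sedentary rats for 3 of the 29 in LCR (0.268% of all genes tested) and for 6 in HCR (0.596%).

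**Figure D1:**
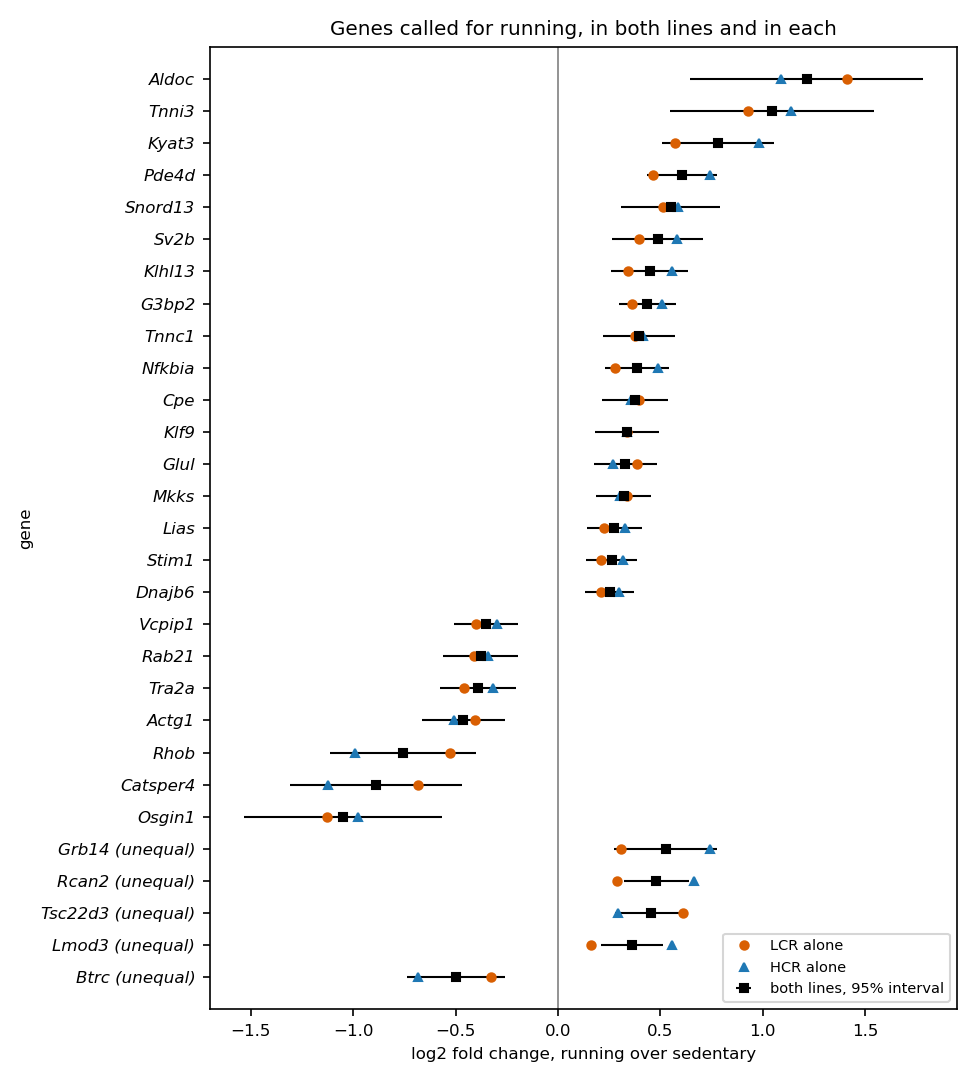
Log2 fold change, running over sedentary, of called genes with a full symbol. Black squares with 95% intervals give both lines together, orange circles LCR and blue triangles HCR, and genes whose line responses were unequal stand at the bottom. Every gene shown lies on one side of 0 in both lines, from 1.21 for Aldoc to -1.05 for Osgin1.

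The shared rise with the smallest adjusted p was in Pde4d, a phosphodiesterase that breaks down cyclic AMP. Pde4d had 224, 211, 223, 276 and 166 CPM in LCR runners, against a lowest of 142, a median of 157 and a highest of 206 CPM in sedentary LCR. It had 303, 269, 372, 264 and 301 CPM in HCR runners, against 141, 174 and 239 CPM as lowest, median and highest in sedentary HCR. All 5 HCR runners lay above every sedentary HCR library, and 4 of 5 LCR runners lay above every sedentary LCR library. Over both lines Pde4d rose 1.52-fold (log2 fold change 0.61, SE 0.08, adjusted p = 0.000185), by 0.46 in LCR and 0.75 in HCR, and the responses differed by 0.28 (95% interval -0.05 to 0.62). It was called in all 26 refits that left out 1 library each, and moved alike in 24 of them. Of 26 tested genes of cyclic AMP signalling, Pde4d was the 1 called and 16 lay above 0, with a median of 0.03 beside -0.00 over all genes tested. The related phosphodiesterases Pde4a and Pde4b stood at 0.36 each (adjusted p = 0.172 and 0.197), and the catalytic subunit of protein kinase A, Prkaca, at 0.23 (adjusted p = 0.146), while Prkar2b, a regulatory subunit of that kinase, stood at -0.74 (adjusted p = 0.198).

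G3bp2, an RNA-binding protein of stress granules, had 164, 164, 123, 184 and 170 CPM in LCR runners, against 102, 124 and 144 CPM as lowest, median and highest in sedentary LCR. It had 194, 206, 174, 174 and 184 CPM in HCR runners, against 112, 136 and 153 CPM in sedentary HCR. Only LCR running 3 lay among the sedentary values of its line. G3bp2 rose 1.35-fold (log2 fold change 0.44, SE 0.07, adjusted p = 0.00114) and was called in all 26 refits.

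Kynurenine and amino acid handling held a pair of shared rises. Kyat3, a kynurenine aminotransferase, had 23.9, 16.5, 16.2, 20.2 and 19.3 CPM in LCR runners, against 5.99, 13.7 and 16.2 CPM as lowest, median and highest in sedentary LCR. It had 22.8, 23.9, 31.2, 18.2 and 23.5 CPM in HCR runners, against 8.12, 12.7 and 14.4 CPM in sedentary HCR. HCR runners did not overlap sedentary HCR, and LCR runners met the top of the sedentary range only at their lowest value. Kyat3 rose 1.72-fold (log2 fold change 0.78, SE 0.13, adjusted p = 0.00290) and was called in all 26 refits. Glul, the glutamine synthetase, rose 1.26-fold (0.33, SE 0.08, adjusted p = 0.0412) and was called in 11 of 26 refits. Of 10 tested members of the list of these enzymes, 9 lay above 0 (median 0.18) and 2 were called. The alanine aminotransferase Gpt stood at 0.33 (adjusted p = 0.198) and the mitochondrial aspartate aminotransferase Got2 at 0.18 (adjusted p = 0.255).

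Glucocorticoid-responsive genes gave 4 calls, all higher in runners, of 27 members tested, where the background of higher calls was 0.238%. The 4 were Nfkbia, Klf9, Tsc22d3 and Glul, and Glul is also a member of the enzyme list above. In the list, 21 members lay above 0 with a median of 0.26 (0.14 in LCR and 0.26 in HCR). An unadjusted p under 0.05 was seen in 10 members, and in 1251 of all genes tested (12.4%). The list was chosen with earlier results of these data known, so its counts describe it and are not a test. Nfkbia, the inhibitor of NF-kappa-B, had 209, 199, 212, 273 and 221 CPM in LCR runners, against 165, 180 and 206 CPM as lowest, median and highest in sedentary LCR. It had 359, 381, 410, 230 and 230 CPM in HCR runners, against 210, 231 and 245 CPM in sedentary HCR. HCR runners fell into 3 high libraries and 2 that lay just below the sedentary median. Nfkbia rose 1.31-fold (0.39, SE 0.08, adjusted p = 0.0183), by 0.28 in LCR and 0.49 in HCR. Of 26 refits it was called in 24 and moved alike in 22.

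The zinc finger transcription factor Klf9 had 670, 687, 661, 833 and 747 CPM in LCR runners, against 431, 571 and 699 CPM as lowest, median and highest in sedentary LCR. It had 676, 702, 831, 732 and 697 CPM in HCR runners, against 459, 560 and 753 CPM in sedentary HCR. The groups overlapped in both lines, and all 10 runners lay above the sedentary median. Klf9 rose 1.26-fold (0.34, SE 0.08, adjusted p = 0.0400), by 0.34 in each line, with a difference of -0.00 (95% interval -0.32 to 0.31), and was called in 10 of 26 refits. Tsc22d3, which encodes the glucocorticoid-induced leucine zipper, was called over both lines (0.45, SE 0.09, adjusted p = 0.00950) but moved unequally, by 0.61 in LCR and 0.29 in HCR. Members that were not called stood at 0.90 for the stress-response gene Ddit4, 0.43 for the transcription factor Klf15, 0.39 for the ubiquitin ligase Fbxo32 and 0.32 for the receptor co-chaperone Fkbp5, while the phosphatase Dusp1 stood at -0.67 (adjusted p from 0.0702 to 0.499).

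Tnnc1, Tnni3 and Stim1 were higher in runners of both lines. Tnnc1, the slow and cardiac troponin C, had 3041, 2522, 2582, 2756 and 2930 CPM in LCR runners, against 1626, 2248 and 2453 CPM as lowest, median and highest in sedentary LCR. It had 2538, 2546, 3092, 3357 and 3453 CPM in HCR runners, against 1780, 2119 and 3370 CPM in sedentary HCR. LCR runners did not overlap sedentary LCR, and in HCR the overlap came from sedentary replicate 4 alone. Tnnc1 rose 1.32-fold (0.40, SE 0.09, adjusted p = 0.0389; called in 15 of 26 refits). Among 16 slow-fibre genes tested, Tnnc1 was the 1 called, 13 lay above 0 and the median was 0.08; the slow troponins Tnni1 and Tnnt1 stood at 0.11 and 0.15 (adjusted p = 0.526 and 0.462).

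Tnni3, the cardiac troponin I, was detected at a low level, with a lowest of 3.31, a median of 8.40 and a highest of 20.4 CPM in runners, against 0.694, 4.13 and 7.85 CPM in sedentary rats. It rose 2.06-fold (1.05, SE 0.25, adjusted p = 0.0476), was called in 6 of 26 refits, and rested on 146 counts over the runners and 134 over the sedentary rats. Stim1, the calcium sensor of the sarcoplasmic reticulum, had 394 to 594 CPM in runners, against 345 to 450 CPM in sedentary rats (0.26, SE 0.06, adjusted p = 0.0448; called in 6 of 26 refits). All 10 runners lay above the sedentary median of Stim1. Stim1 was the 1 member called of 26 calcium genes tested, whose median was 0.06.

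Aldoc and Lias moved alike and were higher in runners. Aldoc, the glycolytic aldolase C, had 4.14, 5.13 and 19.2 CPM as lowest, median and highest in runners, against 0.694, 2.66 and 10.6 CPM in sedentary rats. It rose 2.32-fold (1.21, SE 0.28, adjusted p = 0.0448), rested on 117 counts over the runners and 96 over the sedentary rats, and was called in 8 of 26 refits. Lias, which makes the lipoic acid cofactor of mitochondrial dehydrogenases, rose 1.21-fold (0.28, SE 0.07, adjusted p = 0.0492; called in 6 of 26 refits). Of 78 nuclear OXPHOS subunits, which build the respiratory chain, 0 were called (edgeR quasi-likelihood test) and 32 had an unadjusted p under 0.05 (12.4% of all genes tested), while 75 lay above 0 with a median of 0.15 (0.09 in LCR and 0.20 in HCR). Those nearest the threshold were Uqcrh of complex III (0.26, adjusted p = 0.0513) and Atp5f1a of ATP synthase (0.26, adjusted p = 0.0653).

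The regulator of mitochondrial genes Ppargc1a stood at 0.49 (adjusted p = 0.0653) and the insulin-responsive glucose transporter Slc2a4 at 0.29 (adjusted p = 0.0541). Citrate synthase, Cs, stood at 0.05, the carnitine palmitoyltransferase Cpt1b at 0.15, the kinase Pdk4 at 0.58, myoglobin, Mb, at 0.20, Vegfa, an angiogenic growth factor, at -0.20, Myh7 at 0.06 and Myh2, the type 2A myosin, at -0.79 (adjusted p from 0.250 to 0.841). None of these passed the threshold. The Myh2 value pooled 0.01 in LCR and -1.76 in HCR. For Pdk4 the log2 response in HCR was above that in LCR by 1.59. Neither difference between the lines passed the adjusted threshold.

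The other higher genes serve varied roles. Snord13, a small nucleolar RNA gene whose counts need not come from the mature RNA since priming was from poly(A), had medians of 151 CPM in runners and 107 CPM in sedentary rats (0.55, adjusted p = 0.0396; called in 14 of 26 refits). Klhl13, an adaptor of a cullin ubiquitin ligase, had medians of 56.3 CPM in runners and 45.2 CPM in sedentary rats (0.45, adjusted p = 0.0200; called in 24 of 26 refits). Mkks, a chaperonin-like protein linked to cilia, had medians of 113 CPM in runners and 89.0 CPM in sedentary rats (0.32, adjusted p = 0.0200; 24 of 26 refits), and 8 of 10 runners lay above every sedentary library. Cpe, a carboxypeptidase that trims prohormones, had medians of 167 CPM in runners and 132 CPM in sedentary rats (0.37, adjusted p = 0.0282; 23 of 26 refits). The synaptic vesicle protein gene Sv2b (0.49, adjusted p = 0.0400) and the Z-disc co-chaperone Dnajb6 (0.25, adjusted p = 0.0448) also rose, and were called in 10 and 6 of 26 refits.

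**Figure D2:**
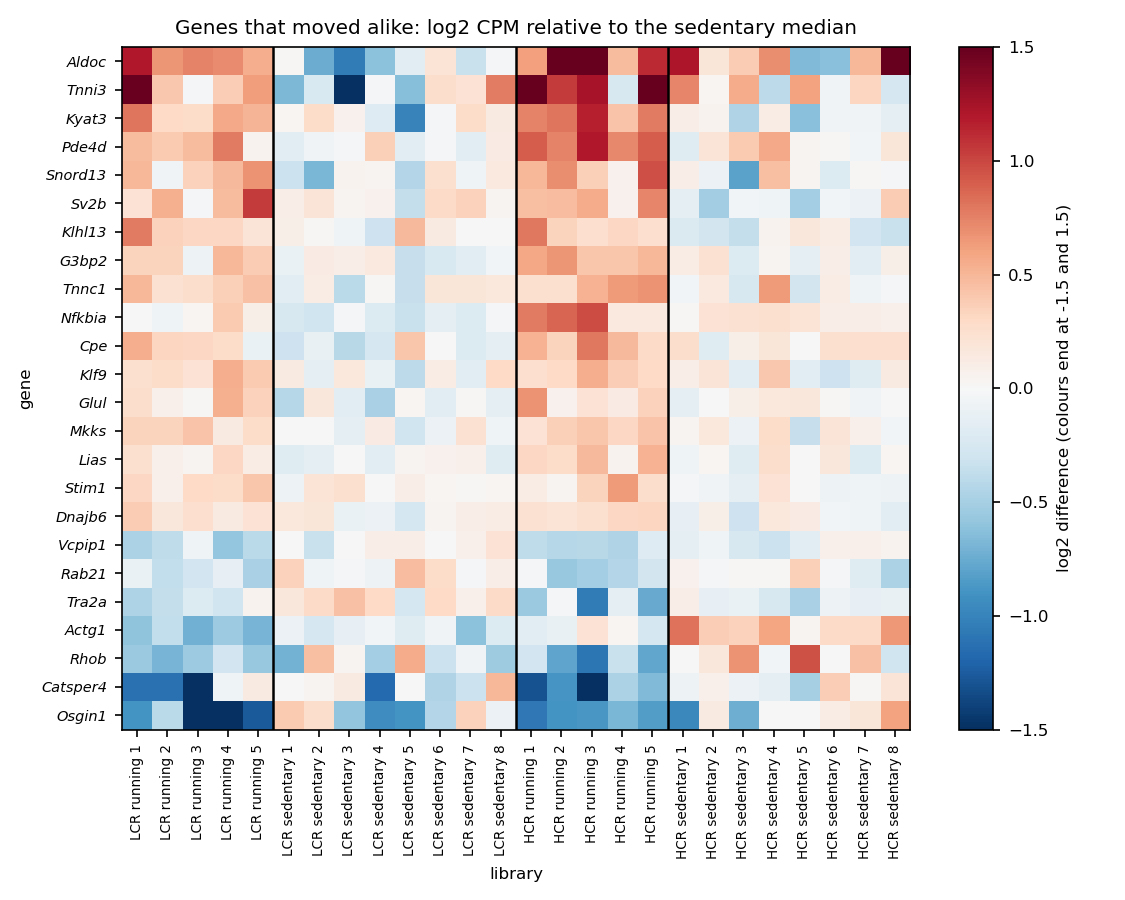
Log2 CPM of the genes that moved alike and have a full symbol, in each of 26 libraries, relative to the median of the sedentary libraries, with runners left of sedentary rats within each line. Red is above and blue below that median, and the runners' columns are mostly red in the upper rows and blue in the lower ones.

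Each runner was above the sedentary median in 14 to 18 of the 18 genes that were higher, while sedentary libraries were above it in 5 to 16, with the highest value in HCR sedentary 4. Those counts describe the genes that were chosen with these libraries, and are not a test.

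Genes lower in runners of both lines included Actg1, Rhob, Tra2a and Osgin1. Actg1, the cytoplasmic gamma actin, had 15.2, 18, 13.9, 15.8 and 14.1 CPM in LCR runners, against 15.0, 21.1 and 22.9 CPM as lowest, median and highest in sedentary LCR. It had 20.8, 21.7, 27.7, 24.0 and 19.4 CPM in HCR runners, against 24.4, 30.5 and 42.4 CPM in sedentary HCR. All runners lay below the sedentary median of their own line, and the groups overlapped in both lines. Actg1 fell by 0.46 on the log2 scale (SE 0.10, adjusted p = 0.0349; called in 19 of 26 refits). Rhob, a small GTPase of actin dynamics that is also induced as an immediate early gene, had 9.77, 8.76, 9.85, 12.0 and 9.67 CPM in LCR runners, against 8.65, 13 and 22.5 CPM in sedentary LCR. Rhob had 11.9, 8.14, 6.38, 11.6 and 8.18 CPM in HCR runners, against 11.9, 15.9 and 30 CPM in sedentary HCR.

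Rhob fell by 0.76 on the log2 scale (SE 0.18, adjusted p = 0.0448), with all 10 runners below the sedentary median. Its log2 fold change was -0.53 in LCR and -0.99 in HCR. Of 26 refits it was called in 8 and moved alike in 7. Of 32 tested genes of the actin cytoskeleton, 24 lay below 0 (median -0.04) and 2 were called, Actg1 and Rhob. Of 26 immediate early genes, 20 lay below 0 (median -0.15) and Rhob alone was called. Members that were not called included the transcription factor Fos at -1.24 (adjusted p = 0.120), the transcription factor Egr1 at -0.48 (adjusted p = 0.343) and the nuclear receptor Nr4a3 at 0.92 (adjusted p = 0.260).

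Osgin1, an oxidative stress-induced growth inhibitor, had 4.88, 7.30, 1.16, 2.53 and 3.52 CPM in LCR runners, against 4.71, 8.26 and 13.5 CPM as lowest, median and highest in sedentary LCR. It had 4.15, 4.88, 4.96, 5.80 and 5.11 CPM in HCR runners, against 4.59, 10.5 and 15.8 CPM in sedentary HCR. All 10 runners lay below the sedentary median, and the groups overlapped in both lines. Osgin1 fell by 1.05 on the log2 scale (SE 0.24, adjusted p = 0.0406; called in 11 of 26 refits), resting on 70 counts over the runners and 270 over the sedentary rats. Osgin1 is listed among NRF2 targets, of which it was the 1 called of 25 tested (median 0.04).

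Tra2a, a splicing activator, had 97.9, 163 and 211 CPM as lowest, median and highest in runners, against 146, 204 and 278 CPM in sedentary rats, and fell by 0.39 (SE 0.09, adjusted p = 0.0476; called in 7 of 26 refits). It was the 1 called of 32 splicing regulators, of which 28 lay below 0 (median -0.09) and 11 had an unadjusted p under 0.05 (12.4% of all genes tested). Tra2b, its close relative, stood at -0.28 (adjusted p = 0.0662), Srsf10 at -0.31 (adjusted p = 0.0691) and Srsf2 at -0.26 (adjusted p = 0.0702), all splicing factors. Vcpip1, a deubiquitinase, fell by 0.35 (SE 0.08, adjusted p = 0.0351; called in 16 of 26 refits), with 8 of 10 runners below every sedentary library. Rab21, a GTPase of endosomes, fell by 0.38 (SE 0.09, adjusted p = 0.0493; called in 4 of 26 refits), with LCR runners below every sedentary LCR library. Catsper4, a subunit of the sperm calcium channel, fell by 0.89 (SE 0.21, adjusted p = 0.0448; called in 8 of 26 refits) at medians of 5.43 CPM in runners and 11.9 CPM in sedentary rats.

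**Figure D3:**
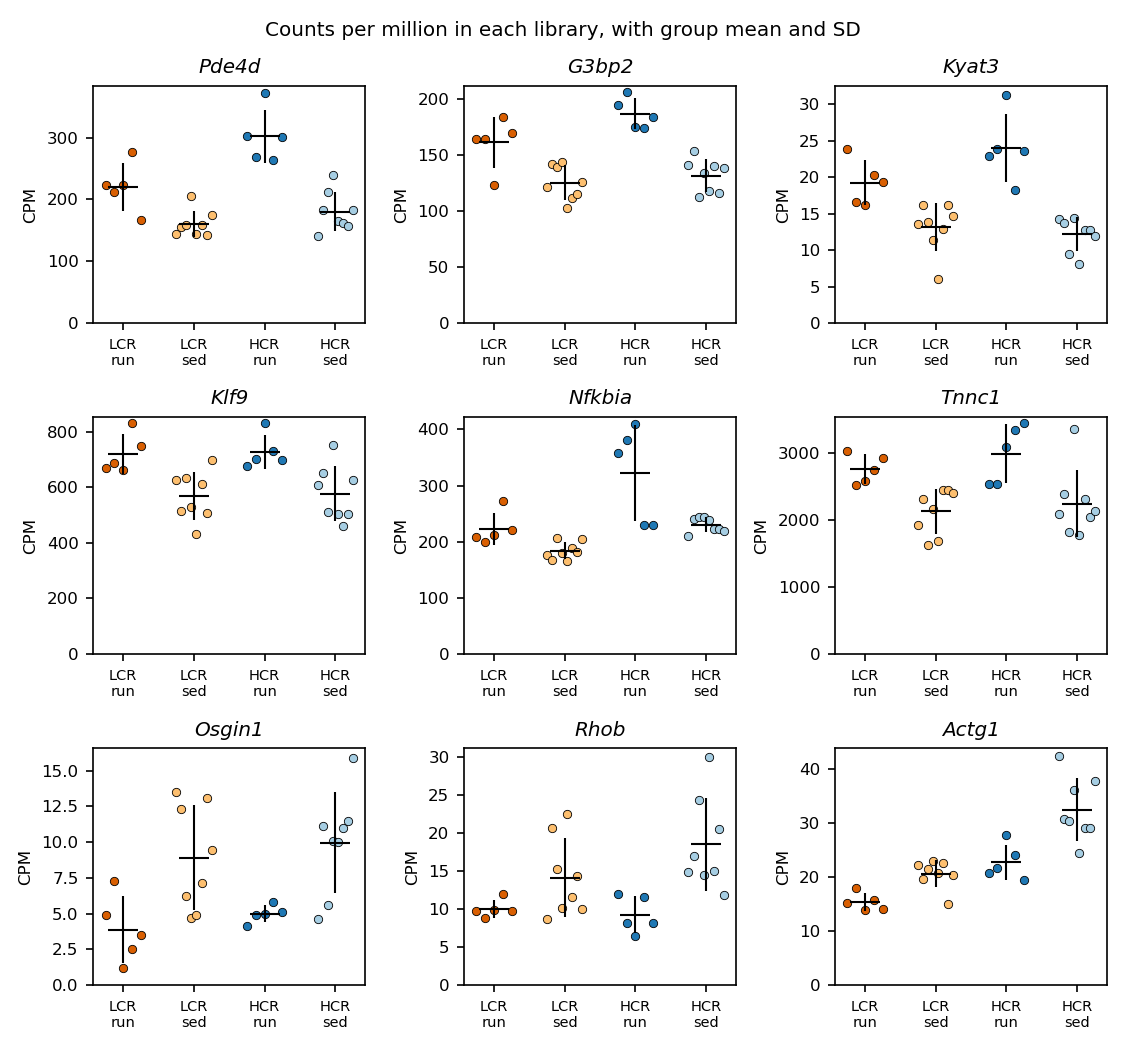
CPM of 9 genes that moved alike in each library, with running left of sedentary rats in LCR and in HCR. Points are libraries and the horizontal and vertical bars give the mean and SD of each group. HCR runners of Pde4d, from 264 to 372 CPM, lie above sedentary HCR, whose highest is 239 CPM, and all runners of Rhob lie at or below 12.0 CPM.

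Genes without a full symbol made up 5 of the 29 and are named here after their values were seen. LOC120093204 had a lowest of 4.26, a median of 9.54 and a highest of 14.9 CPM in runners, against 8.12, 15.3 and 26.4 CPM in sedentary rats (-0.84, SE 0.16, adjusted p = 0.0137), and was called in all 26 refits. LOC120103523 (-0.88), LOC120098619 (-0.77) and LOC120100038 (-0.63) were also lower. LOC102550339 had 23.9, 44.5, 50.4, 19.9 and 26.6 CPM in HCR runners, against a lowest of 10.9, a median of 15.3 and a highest of 23.0 CPM in sedentary HCR (1.12, SE 0.22). It was near 0 in LCR, at 1.63, 0, 0, 0 and 0.879 CPM in runners against 0, 0 and 0.694 CPM in sedentary rats, so that its response in LCR rested on few counts. Its level in HCR running 5, 26.6 CPM, and in LCR running 5, 0.879 CPM, went with their genotype rather than their title.

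RefSeq promoter windows of 300 bases, from 250 before to 50 after a gene's start on assembly GRCr8, were found for 20 of the 24 genes that moved alike and have a full symbol. They were searched on both strands for 11 short motifs. The core TGACG of the cyclic AMP element was in a window of 10 of the 20 genes, or 50%, and in 23.0% of all 27457 genes with a window. Its 11 windows among 28 were 39.3%, against 21.2% of all windows. The core was also in a window of Btrc, Grb14, Rcan2 and Tsc22d3, which were called but counted as unequal. Genes with a window were not limited to those tested here, and the share among tested genes was not computed. The palindrome TGACGTCA, which contains that core, was in 1 of the 20, G3bp2, and in 2.00% of all genes. The full glucocorticoid response element was in 0 of the 20 and in 0.00728% of all genes, and its arm AGAACA in 3 of the 20, or 15.0%, and in 21.6% of all genes. An NF-kappa-B motif was found at Nfkbia (0.390% of all genes) and the CArG box, bound by serum response factor, at Actg1 (1.77%). The antioxidant motif TGACNNNGC was in 3 of the 20, or 15.0%, and in 13.1% of all genes, and the NFAT core GGAAA in 12, or 60%, and in 64.2% of all genes. The ERR motif AAGGTCA was in 1 of the 20, Tnni3, and in 4.83% of all genes, and the AP-1 site TGANTCA in 1 of the 20, Klf9, and in 8.04% of all genes. The MEF2 site was in 0 of the 20 and in 0.637% of all genes. A match is a description of letters, not of binding, and 3' counts do not show which start site was used. Windows of Cpe, Dnajb6, Glul, Klf9, Lias, Mkks and Rab21 that hold the core are not shown. Shown 5′ to 3′ are windows of Pde4d, G3bp2, Rhob, Nfkbia and Actg1 only, each chosen to hold a match, in capitals. Matches are to the cyclic AMP motifs in Pde4d, G3bp2 and Rhob, to the NF-kappa-B motif in Nfkbia and to the CArG box in Actg1.
Pde4d, chr2:42592499-42592798 plus strand: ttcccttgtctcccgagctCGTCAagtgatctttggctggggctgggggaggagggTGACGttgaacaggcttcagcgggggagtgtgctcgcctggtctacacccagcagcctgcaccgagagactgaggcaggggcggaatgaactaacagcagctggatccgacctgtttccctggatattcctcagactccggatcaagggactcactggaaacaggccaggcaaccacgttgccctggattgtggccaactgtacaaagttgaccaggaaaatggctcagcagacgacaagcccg
G3bp2, chr14:16271406-16271705 plus strand: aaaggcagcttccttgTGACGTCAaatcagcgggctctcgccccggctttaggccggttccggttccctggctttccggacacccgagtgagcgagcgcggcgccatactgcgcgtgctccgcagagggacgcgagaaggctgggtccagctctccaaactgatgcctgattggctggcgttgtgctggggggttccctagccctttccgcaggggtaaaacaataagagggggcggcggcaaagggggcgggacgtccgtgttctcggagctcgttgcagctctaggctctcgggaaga
Rhob, chr6:37085155-37085454 minus strand: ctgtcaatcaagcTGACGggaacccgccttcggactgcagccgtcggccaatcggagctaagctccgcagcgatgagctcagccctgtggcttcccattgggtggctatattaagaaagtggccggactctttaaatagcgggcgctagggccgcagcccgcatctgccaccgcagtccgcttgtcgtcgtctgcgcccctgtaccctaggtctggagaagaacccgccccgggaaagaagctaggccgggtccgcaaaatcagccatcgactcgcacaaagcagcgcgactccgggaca
Nfkbia, chr6:78597023-78597322 minus strand: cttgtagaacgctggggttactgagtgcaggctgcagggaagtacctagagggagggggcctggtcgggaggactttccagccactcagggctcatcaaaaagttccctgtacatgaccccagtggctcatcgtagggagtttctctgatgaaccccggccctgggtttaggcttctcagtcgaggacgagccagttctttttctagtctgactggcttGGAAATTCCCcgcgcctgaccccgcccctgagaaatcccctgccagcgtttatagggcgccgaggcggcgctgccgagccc
Actg1, chr10:106120902-106121201 minus strand: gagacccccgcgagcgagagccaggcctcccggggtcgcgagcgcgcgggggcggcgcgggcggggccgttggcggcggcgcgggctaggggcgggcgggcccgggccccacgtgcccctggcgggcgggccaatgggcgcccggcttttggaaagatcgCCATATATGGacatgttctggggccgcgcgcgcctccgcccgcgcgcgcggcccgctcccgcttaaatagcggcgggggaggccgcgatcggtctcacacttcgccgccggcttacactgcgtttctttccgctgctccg
The core stood at bases -231 and -194 from the start in this window of Pde4d, which has 5 windows of which 2 hold it, and at -237 in Rhob. In G3bp2 the palindrome began at -234, in 1 of its 3 windows.

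Genes called but unequal between the lines numbered 7, with 6 higher and 1 lower. Rcan2, a regulator of calcineurin, rose by 0.48 over both lines (SE 0.08, adjusted p = 0.00173), by 0.29 in LCR and 0.67 in HCR, with a difference of 0.38 (95% interval 0.08 to 0.67, unadjusted p = 0.0156, edgeR quasi-likelihood test). Lmod3, an actin nucleator of thin filaments, rose by 0.36 (0.16 in LCR and 0.56 in HCR), Grb14, an adaptor that binds the insulin receptor, by 0.53 (0.31 and 0.74), and LOC102546992 by 0.71 (0.33 and 1.04). Btrc, a substrate receptor of a ubiquitin ligase, stood lower, at -0.50 (-0.33 in LCR and -0.68 in HCR). Only Tsc22d3 of the 7 had its larger response in LCR. Over all genes 0 differences between the responses were called (smallest adjusted p = 0.835), and 592 had an unadjusted p under 0.05 (5.88%); DESeq2 and limma voom also called 0.

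Within LCR, 0 genes were called for running (612 at an unadjusted p under 0.05; DESeq2 called 2 and voom 1), and 10 within HCR (0.0994%), where 4 of the genes that moved alike were among them. Each line was then fitted without the other, so that the choice of genes and their look-up shared no library. Of the 100 genes of smallest p in LCR, 74 had the same sign in HCR and 27 also had an unadjusted p under 0.05 there. Of the 100 genes of smallest p in HCR, 79 had the same sign in LCR and 13 also had an unadjusted p under 0.05 there. Over all genes the sign was shared by 56.4%, and 8.05% in HCR and 4.46% in LCR met both conditions. Across 10064 genes of these fits, Pearson's r of the responses was 0.23 and Spearman's correlation 0.20, given as a description since genes are not independent.

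**Figure D4:**
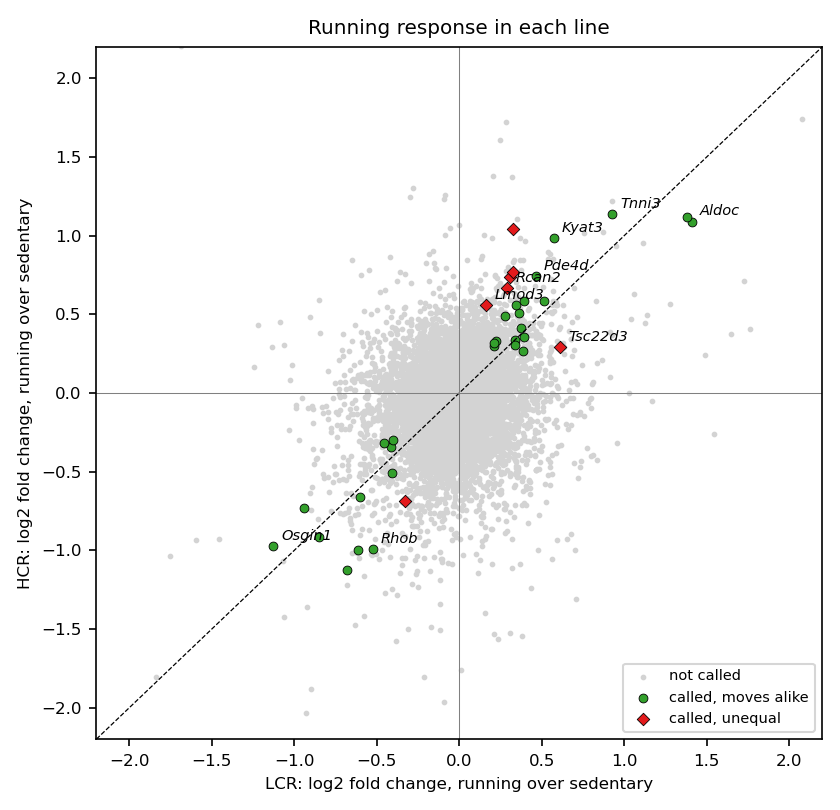
Log2 fold change, running over sedentary, in LCR (x axis) and HCR (y axis) for each gene tested, with the genes that moved alike as green circles, called but unequal genes as red diamonds and the others in grey; 3 genes lie outside the axis limit of 2.2 and the dashed line marks equal responses. Values come from the fit of all libraries. Green points lie near the dashed line by the rule that chose them, with Tsc22d3 below it and Rcan2 and Lmod3 above it among the red ones.

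**Figure D5:**
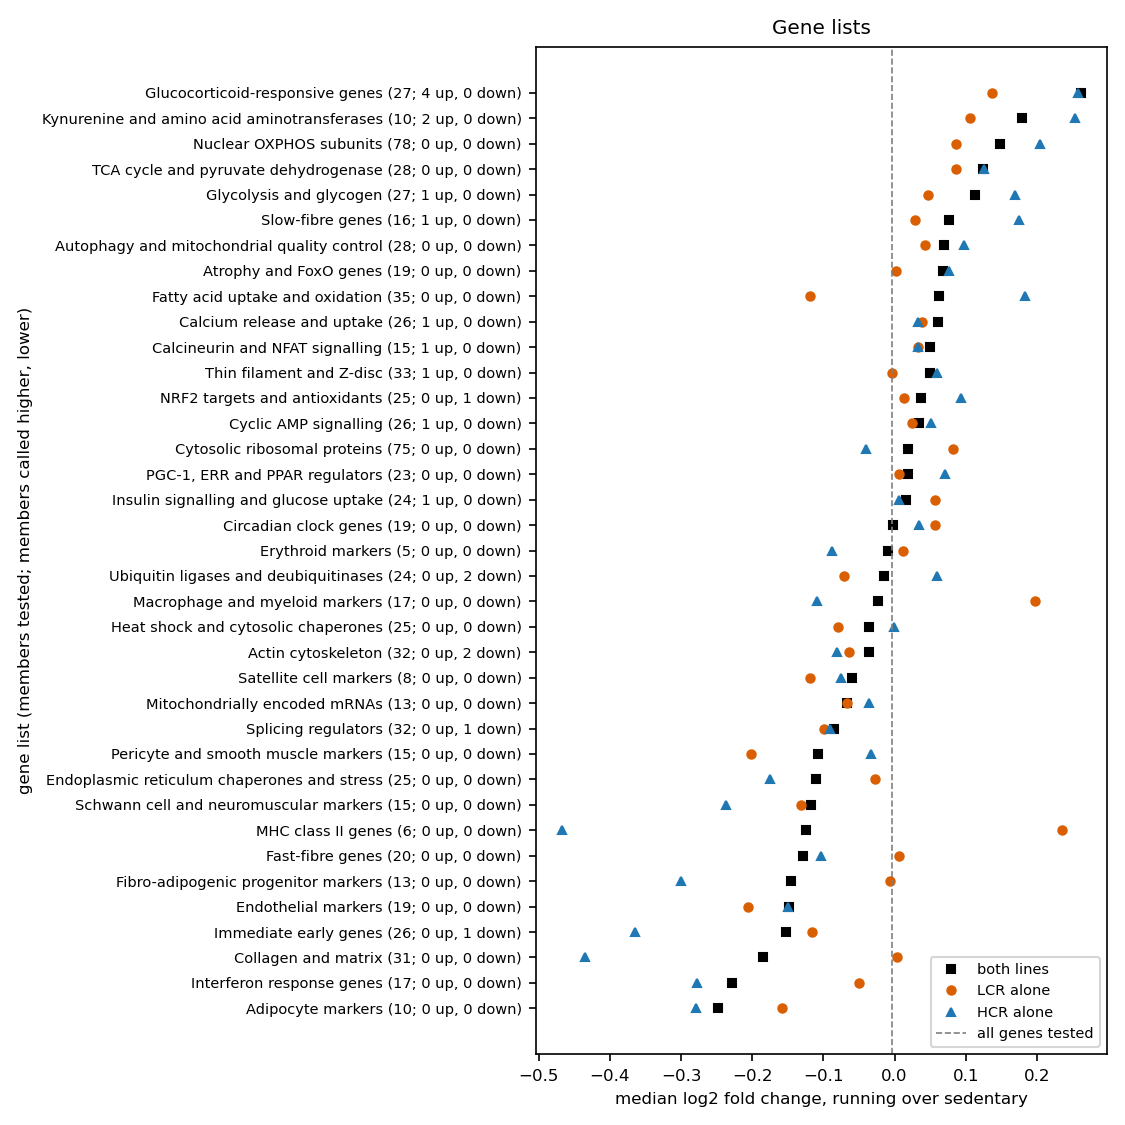
Median log2 fold change, running over sedentary, of 37 gene lists, for both lines (squares), LCR (circles) and HCR (triangles), with the number of members tested and called beside each name. Glucocorticoid-responsive genes are highest at 0.26, and the dashed line marks all genes tested at -0.00.

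How many genes were called depended on single libraries: the count of 36 ran from 9 without HCR running 3 to 65 without LCR running 5 over the 26 refits, and the count of 29 from 5 without LCR running 1 to 55 without LCR running 5. The count of 36 was also below 24, that is moved by over 1.5 times, without HCR running 1 (16), HCR running 2 (23), HCR running 5 (15), LCR running 4 (14), HCR sedentary 1 (17), HCR sedentary 2 (12), HCR sedentary 3 (18), HCR sedentary 6 (16), HCR sedentary 7 (15), LCR running 1 (11), LCR sedentary 1 (23), LCR sedentary 2 (22), LCR sedentary 4 (23) and LCR sedentary 8 (20). Taking the line of the 2 conflicting libraries from their titles gave 12 calls, and leaving both out gave 44, of which 20 were among the 36. All 36 kept their sign in every setting tried.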

How the data were processed

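Soleus libraries of 26 rats were primed from poly(A) tails and read from 1 end near transcript 3′ ends, per the labels' protocols. The authors deposited raw counts per gene, whole numbers with no scaling. STAR, featureCounts, cutadapt, UMI-tools, FastQC and MultiQC, with no versions, and the assembly mRatBN7.2 are named in the submitters' processing notes. Collapsing of molecular identifiers and the strand setting of the counting are not given in the sources used here, so counting precision may be lower than the totals imply. Of the 24 genes that moved alike and have a full symbol, 11 overlap another annotated gene and are uncertain for that reason. These are Pde4d, G3bp2, Glul, Klf9, Stim1, Lias, Snord13, Klhl13, Cpe, Dnajb6 and Rab21. The table holds 34034 genes, and 0 columns belonged to no sample.

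The test was that of edgeR 4.0.16, run in R 4.3.3 (TMM factors, filterByExpr by group, robust quasi-likelihood F test, Benjamini-Hochberg adjustment at 0.05 over 10064 genes, line and running as terms). Responses of each line and their difference came from a fit of 4 group means. The biological coefficient of variation was 0.156. SE is the absolute log2 fold change over the root of F, and CPM used TMM-scaled totals. Alternatives used DESeq2 1.42.0 and limma 3.58.1 voom. Permutation tests drew 100000 resamples. Each library was treated as 1 animal, and p-values measure only the spread between these libraries. No same-group pair of libraries agreed within sampling noise. The gene tests were also run on simulated counts.

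Members and the 37 gene lists were chosen with earlier results of these data known. Every gene with a full symbol that moved alike or was called, up to 2 members of each list with no call, and a set of muscle genes were named by rule. Other list members, and genes without a full symbol, were named after their values were seen. Among the called genes with unequal responses, 1 is not reported here.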

Additional observations from a re-analysis of the deposited data

Results flagged for a closer look

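Library totals and the called genes reported here were screened in each group, and other named genes were not. Of these 144 groups of values, 13 had 1 library far from the others by Dixon's 95% criterion, where chance flags about 1 in 20. In runners these were G3bp2 at 123 CPM in LCR running 3, Klhl13 at 78.1 CPM in LCR running 1 and 78.9 CPM in HCR running 1, and Lmod3 at 702 CPM in LCR running 4. In sedentary LCR they were Actg1 at 15.0 CPM in replicate 7, Vcpip1 at 40.8 CPM in replicate 2, and, all in replicate 5, Kyat3 at 5.99, LOC120100038 at 11.2 and Sv2b at 24.4 CPM. In sedentary HCR they were LOC120093204 at 8.12 CPM in replicate 5 and, all in replicate 4, Stim1 at 444, Tnnc1 at 3370 and Tsc22d3 at 85.0 CPM.

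For 10 of 89 named genes the lines' responses differed at an unadjusted p under 0.05, HCR minus LCR, though the smallest adjusted p over all genes was 0.835 (edgeR quasi-likelihood test). These differences, on the log2 scale, were 3.90 for the lipase inhibitor Angptl4, 1.59 for Pdk4, 0.72 for LOC102546992, 0.39 for Fbxo32, 0.39 for Lmod3 and 0.38 for Rcan2. They were -0.43 for the chemokine Cxcl14, -0.57 for Cd74, -0.83 for the macrophage gene Cd68 and -1.78 for Myh2. The Angptl4 value rests on few counts and has a 95% interval of 1.40 to 6.39. Its counts were 1, 2, 0, 3 and 0 in LCR runners, against 0 to 12 in sedentary LCR, and 35, 23, 42, 0 and 8 in HCR runners, against 1 to 20 in sedentary HCR.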

How the results depend on the processing

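The 36 called genes kept their sign in every setting tried. The count of 36 was 73 with DESeq2, 9 with no line term, 12 with the title's line and 62 without the 3 libraries of lowest TMM factor, an alternative chosen after seeing the data, and 9 to 65 without 1 library. The count of 29 was 19 with library totals only, 48 with DESeq2, 8 with the title's line, 47 without those 3 libraries and 5 to 55 without 1 library. The HCR count of 10 was 79 with DESeq2 and 4 to 38 without 1 library. The LCR count of 0 was 2 with no filter on low counts, 2 with DESeq2, 1 with voom, 1 without the 2 libraries with conflicting titles, 1 without the 3 libraries of lowest TMM factor and 0 to 2 without 1 library. Library totals only called 58.3% higher and upper-quartile factors 58.1%, against 66.7%. With library totals only the median log2 fold change over all genes was -0.04, as far from 0 as the medians of the cyclic AMP, actin and NRF2 lists. Of 23 same-numbered pairs of libraries from different groups, 5 had a correlation over 0.1 (-0.314 to 0.356). The labels do not say what the numbers mean, so these correlations do not settle whether they pair animals. With the replicate block 17 genes were called and 12 moved alike. The erythroid gene Hbb, at 0.12, reversed to -0.21 with the replicate block, to -0.13 without LCR running 1 and to -0.09 without LCR running 4, within -0.13 to 0.23 over the refits without 1 library. The cause of these shifts was not tested. At 1.10 to 2.52 M counts a library, genes at a low CPM such as Osgin1 have few counts.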
